A study of Mus musculus with 13 samples.

Results

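The neurotrophins are small secreted proteins that keep neurons alive, guide their growth and adjust their synapses. Each mature neurotrophin binds a receptor tyrosine kinase of the Trk family, and all of them bind the p75 neurotrophin receptor. Brain-derived neurotrophic factor (Bdnf) acts through TrkB, encoded by Ntrk2, and neurotrophin-3 (Ntf3) acts mainly through TrkC, encoded by Ntrk3. The p75 receptor is encoded by Ngfr and, together with the sorting receptor sortilin (Sort1), binds the uncleaved proneurotrophins. In the sympathetic nervous system these receptors serve developing neurons, and in human neuroblastoma the Trk receptors are studied as markers of tumour behaviour. The genes described here are these 6, Bdnf, Ntf3, Ntrk2, Ntrk3, Ngfr and Sort1, taken with every probe set that the array's annotation assigns to them alone. They had 24 of the 34958 probe sets with exactly 1 gene symbol: 8 for Ntrk2, 8 for Ntrk3, 3 for Ngfr, 3 for Sort1 and 2 for Bdnf. Ntf3 had 0 listed probe sets and was not analysed here.

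The samples were 10 neuroblastomas and 3 normal adrenal glands of C57BL/6 mice, measured as total RNA on Affymetrix arrays. Tumours arose in mice carrying neural crest-specific transgenes for mutated ALK (a receptor tyrosine kinase; group mutALK, n = 3 arrays), for MYCN (a transcription factor; group MYCN, n = 4) or for both (double-driver, n = 3), and the adrenal glands were of normal genotype (n = 3). Animals with a transgene were followed until a tumour could be felt, no treatment was given, and ages are not stated. Adrenal gland is a mixed tissue of steroid-making cortex and catecholamine-making medulla, so it is the control for the tumours' site and not for their cell type. The transgenes' promoter, the ALK mutation and the number of founder lines are not given in the labels. Nor do the labels say that each array came from another animal, so p-values measure only the spread between these samples.

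Values are log2 expression, so a difference of 1 is a doubling, and a level is not compared between probe sets. Differences are given as the first group minus the second ± SE from limma's fit over all 13 arrays, and a change is called at a Benjamini-Hochberg adjusted p under 0.05 over the 34958 probe sets. Array medians lay between 5.80 and 5.90. The mean of 11 adrenal cortex markers was 11.56 to 12.93 in the adrenal arrays and 5.30 to 6.98 in the tumours, and the mean of 16 sympathetic neuron markers was 10.17 to 12.14 in the tumours, so both tissues matched their labels. Adrenal 2 stood apart from adrenal 1 and 3: its sympathetic neuron mean was 10.24 against 7.57 and 6.58, and its Schwann cell and glia mean was 8.18 against 6.47 and 6.19. Liver transcripts were high in 5 arrays, mutALK 1, mutALK 3, MYCN 2, adrenal 2 and double-driver 1, with liver marker means of 8.61 to 11.98 against 4.35 to 5.64 in the other 8. Fits without these 5 arrays kept mutALK 2 alone in its group, adrenal 1 and 3, and double-driver 2 and 3. Their mutALK differences therefore have no replicate of their own. In bulk tissue, fewer cells of a type and less RNA per cell cannot be told apart.

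By their brightest probe sets, Bdnf was higher and Ntrk2 lower in all 3 tumour groups than in adrenal gland. No member's brightest probe set was called between the tumour groups. With 1 probe set per gene, 40% of the 5 measured members were called in each comparison with adrenal. Of all genes 41.7%, 49.8% and 48.2% were called in mutALK, MYCN and double-driver tumours. Between the tumours 0% of the members were called. The shares of all genes were 30.3% in mutALK against MYCN, 13% in double-driver against MYCN and 14.4% in double-driver against mutALK. For Ntrk2, 3 of 8 probe sets were called lower, and the mean of all 8 was not called. Of the 24 member probe sets, 2 were higher and 3 lower in mutALK than in adrenal, where 38.5% of all probe sets were called. The counts were again 2 higher and 3 lower in MYCN against adrenal (47.3% of all called) and in double-driver tumours against adrenal (46.2% of all called). That is 20.8% of the members in each comparison, which is below the background, so the members as a set were not called more often than other probe sets. Between the tumours 0 were higher and 1 lower in mutALK against MYCN (28% of all called). With limma 0 were called in double-driver against MYCN (13.3% of all called) and 0 in double-driver against mutALK (14.1% of all called), with 2 and 0 at an unadjusted p under 0.05. The median difference of the 24 probe sets was -0.10 in mutALK, -0.08 in MYCN and -0.28 in double-driver tumours against adrenal, beside 0.01, 0.01 and -0.01 over all probe sets. The 3 comparisons with adrenal share the same 3 control arrays, so their counts are not independent.

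**Figure D1:**
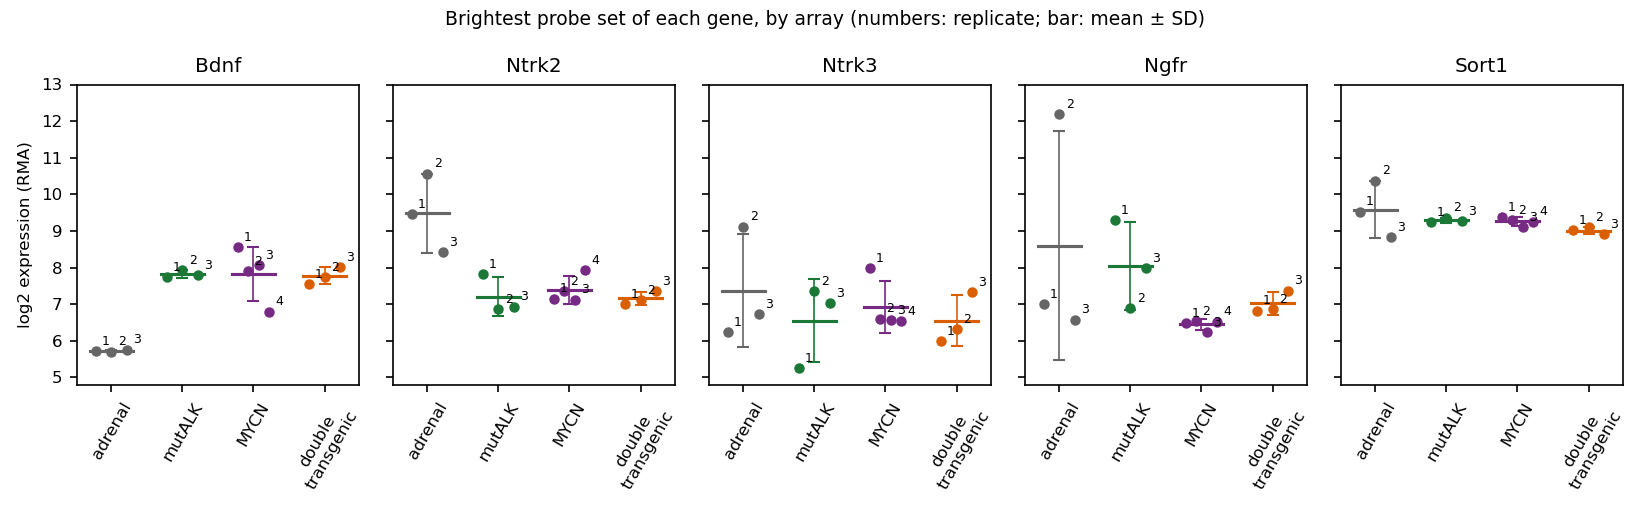
Log2 expression (y axis) of the brightest probe set of Bdnf, Ntrk2, Ntrk3, Ngfr and Sort1 in each array, by group; points are arrays numbered by replicate, thick bars the group means and thin bars ± 1 SD. Bdnf was above all adrenal arrays in 10 of 10 tumours and Ntrk2 below all of them in 10 of 10, while adrenal 2 carried the highest Ntrk3, Ngfr and Sort1 values.

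Upstream sequences are shown for Bdnf and Ntrk2, the 2 members whose brightest probe sets changed in every tumour group. Both come from RefSeq on assembly GRCm38.p6 and give the 250 bases before an annotated transcription start, 5′ to 3′ on the + strand. The table listed 7 starts for Bdnf, whose gene is read from several alternative promoters, 2 for Ntf3, and 1 each for Ngfr and Ntrk2. The Bdnf window at chr2:109692186-109692435 is printed because it was the only 1 of the 7 with a CRE core, TGACG or its reverse complement CGTCA, here in capitals. The CRE is the element bound by the activity-regulated factor CREB.
Bdnf: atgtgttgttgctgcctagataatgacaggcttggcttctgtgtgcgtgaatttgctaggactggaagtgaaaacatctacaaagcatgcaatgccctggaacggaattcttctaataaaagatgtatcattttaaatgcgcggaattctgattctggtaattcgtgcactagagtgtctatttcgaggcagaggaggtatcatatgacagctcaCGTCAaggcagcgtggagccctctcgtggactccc
Ntrk2: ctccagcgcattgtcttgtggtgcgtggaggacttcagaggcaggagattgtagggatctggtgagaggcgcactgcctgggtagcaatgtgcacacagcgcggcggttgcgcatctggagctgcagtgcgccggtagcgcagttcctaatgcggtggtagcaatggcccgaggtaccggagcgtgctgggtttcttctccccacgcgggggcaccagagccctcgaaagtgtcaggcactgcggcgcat
The Ntrk2 window, at chr13:58806319-58806568, held none of the 3 motifs searched. These were the E-box CACGTG, a MYC-family motif, the full CRE TGACGTCA and the CRE core, each on both strands, and a full CRE also contains the core. Among all 32851 windows of this length, 6.02% held the E-box, 1.55% the full CRE and 17.8% the core. In the 11 member windows the E-box occurred in 1, upstream of Ntf3, the full CRE in 0 and the core in 1. The arrays do not tell which of the Bdnf starts was used.

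Bdnf, the ligand of TrkB, was read by 2 probe sets. The brightest, 1422169_a_at, was at 5.72, 5.70 and 5.76 in adrenal 1 to 3. It was at 7.74, 7.93 and 7.79 in mutALK, at 8.55, 7.91, 8.06 and 6.79 in MYCN, and at 7.56, 7.74 and 8.01 in double-driver tumours. All 10 tumours lay above all 3 adrenal arrays, and MYCN 4 was the lowest tumour. Expression rose by 2.10 ± 0.33 in mutALK (adjusted p = 0.00039, limma), by 2.10 ± 0.31 in MYCN (adjusted p = 0.000145) and by 2.04 ± 0.33 in double-driver tumours (adjusted p = 0.000329), which is 4.27-, 4.29- and 4.12-fold.

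The second Bdnf probe set, 1422168_a_at, gave the same separation with larger differences. It was at 3.93, 4.14 and 4.06 in adrenal, at 7.84, 8.20 and 7.86 in mutALK, at 8.67, 7.97, 8.20 and 6.38 in MYCN, and at 7.76, 7.70 and 7.67 in double-driver tumours. The rise was 3.92 ± 0.43 in mutALK, 3.76 ± 0.40 in MYCN and 3.66 ± 0.43 in double-driver tumours, or 15.2-, 13.5- and 12.7-fold, with limma adjusted p-values of 3.16e-05, 1.22e-05 and 3.01e-05. Both probe sets moved together over the 13 arrays (r = 0.99), and all 6 of these calls held under every alternative run. Without the 5 liver arrays the brightest probe set rose by 2.06 to 2.19, the mutALK value coming from mutALK 2 alone. Group means of the brightest probe set were 7.83 ± 0.74 (SD, n = 4) in MYCN, 7.82 ± 0.10 (n = 3) in mutALK, 7.77 ± 0.23 (n = 3) in double-driver and 5.73 ± 0.03 (n = 3) in adrenal. The tumour groups followed each other within their spread: mutALK minus MYCN was -0.00 ± 0.31, double-driver minus MYCN -0.06 ± 0.31 and double-driver minus mutALK -0.05 ± 0.33 (limma adjusted p 0.995, 0.939 and 0.943).

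Bdnf levels lay with the neuronal markers and against the cortex markers across tissues, and the correlations were weaker within the tumours. Over the 13 arrays Bdnf correlated at 0.75 with the sympathetic neuron mean and at -0.92 with the cortex mean. Within the 10 tumours these were 0.15 and -0.33. Other lists moved against Bdnf as well, at -0.90 for fat, -0.86 for pancreas and -0.84 for endothelial markers over 13 arrays. Over the tumours these were -0.51, -0.31 and -0.32. These are descriptions, since adrenal and tumours form separate clusters. Adrenal 2, the adrenal array with a sympathetic neuron mean of 10.24, close to the 10.17 of MYCN 2, had Bdnf at 5.70, within 0.06 of the other adrenal arrays. The genes with the most similar pattern over the 10 tumours were Neurod1 (r = 0.77 over the tumours, 0.93 over 13 arrays), Nectin3 (0.72 and -0.25) and Nxph2 (0.69 and 0.39), among 4163 genes compared. Here and for the other members, such genes were picked for the highest correlation of all compared, so these values are descriptions and not tests.

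The other measured ligand, neurotrophin-4/5 (Ntf5), which also binds TrkB, had group means of 3.25 to 3.52. Its differences from adrenal were -0.09 ± 0.17, -0.27 ± 0.16 and -0.20 ± 0.17 in mutALK, MYCN and double-driver tumours, and no comparison was called.

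The brightest probe set of Ntrk2, which encodes TrkB, fell in every tumour group. This probe set, 1420838_at, was at 9.46, 10.56 and 8.41 in adrenal 1 to 3. In mutALK it was at 7.82, 6.86 and 6.93, in MYCN at 7.15, 7.36, 7.12 and 7.93, and in double-driver tumours at 7.0, 7.11 and 7.36. All 10 tumours lay below all 3 adrenal arrays, with the smallest gap between MYCN 4 and adrenal 3. The fall was -2.28 ± 0.45 in mutALK (4.85-fold, adjusted p = 0.00174, limma), -2.09 ± 0.42 in MYCN (4.24-fold, adjusted p = 0.00142) and -2.32 ± 0.45 in double-driver tumours (adjusted p = 0.00117). Without adrenal 2 these became -1.73, -1.54 and -1.78, and all 3 were still called. The probe set's group means, 9.48 ± 1.08 (SD, n = 3) in adrenal, 7.39 ± 0.38 (n = 4) in MYCN, 7.20 ± 0.53 (n = 3) in mutALK and 7.16 ± 0.18 (n = 3) in double-driver tumours, put the 3 tumour groups within their spread of each other. Between tumours mutALK minus MYCN was -0.19 ± 0.42, double-driver minus MYCN -0.24 ± 0.42 and double-driver minus mutALK -0.05 ± 0.45 (adjusted p 0.801, 0.782 and 0.964).

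The 8 Ntrk2 probe sets did not act as 1. Probe sets 1435196_at and 1420837_at fell with the brightest, and these 3 correlated at 0.86 to 0.93 over the 13 arrays. Probe set 1435196_at was at 7.50, 9.83 and 6.96 in adrenal, at 7.0, 5.66 and 5.47 in mutALK, at 4.92, 5.23, 5.55 and 6.17 in MYCN, and at 5.57, 5.95 and 6.46 in double-driver tumours. Of the 10 tumours 9 were below all adrenal arrays, mutALK 1 being the exception. It fell by -2.05 ± 0.66 in mutALK (adjusted p = 0.0271, limma), by -2.63 ± 0.61 in MYCN (0.00378) and by -2.10 ± 0.66 in double-driver tumours (0.0204). Without adrenal 2 the mutALK and double-driver falls were -1.18 and -1.23 and no longer called (adjusted p 0.0726 and 0.0550). The mutALK call was also lost without mutALK 2, mutALK 3 or the liver arrays, with the arrays that share a number in their labelled titles averaged (mutALK 2 with 3, MYCN 2 with 3), and with both groups alone. The double-driver call was also lost without double-driver 1, double-driver 2 or the liver arrays and with both groups alone.

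The dim probe set 1420837_at, at 3.62 to 4.37 in adrenal and 3.02 to 3.47 in the tumours, fell by -0.59 ± 0.18, -0.78 ± 0.17 and -0.59 ± 0.18 in mutALK, MYCN and double-driver tumours (limma adjusted p 0.0223, 0.00245 and 0.0192). The mutALK and double-driver calls were again lost without adrenal 2 (-0.37 in both), without the liver arrays, with array weights and with both groups alone. The former was also lost without mutALK 3 or with title-number arrays averaged, and the latter without double-driver 2. A second pair of Ntrk2 probe sets, 1435305_at and 1458622_at, followed each other (r = 0.94 over 13 arrays) and not the falling 3 (r from -0.23 to -0.08). Probe set 1435305_at was at 3.79, 4.52 and 3.6 in adrenal, at 3.58, 5.29 and 3.99 in mutALK, at 3.86, 4.22, 4.55 and 5.75 in MYCN and at 4.69, 4.36 and 5.19 in double-driver tumours, and no difference was called. Probe set 1458622_at was at 3.56, 4.28 and 3.03 in adrenal, at 3.14, 4.73 and 3.89 in mutALK, at 3.93, 4.08, 4.16 and 6.09 in MYCN and at 5.22, 4.31 and 5.45 in double-driver tumours. MYCN 4 was the highest array and mutALK 1 the lowest tumour. Its difference from adrenal was 1.37 ± 0.59 in double-driver tumours (adjusted p = 0.0787, limma), called without MYCN 4 (adjusted p = 0.0233) and with the arrays of both groups alone (0.0413). The remaining 3 probe sets, 1437560_at, 1446712_at and 1444121_at, spanned at most 0.81 over the 13 arrays and were never called. Ntrk2 is known to give a kinase-bearing and shorter kinase-lacking receptor forms, and which form each probe set reads is not given in the files used here. With the mean of all 8 probe sets in place of the brightest, the difference from adrenal was -0.50, -0.47 and -0.37 in mutALK, MYCN and double-driver tumours, and not called.

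**Figure D2:**
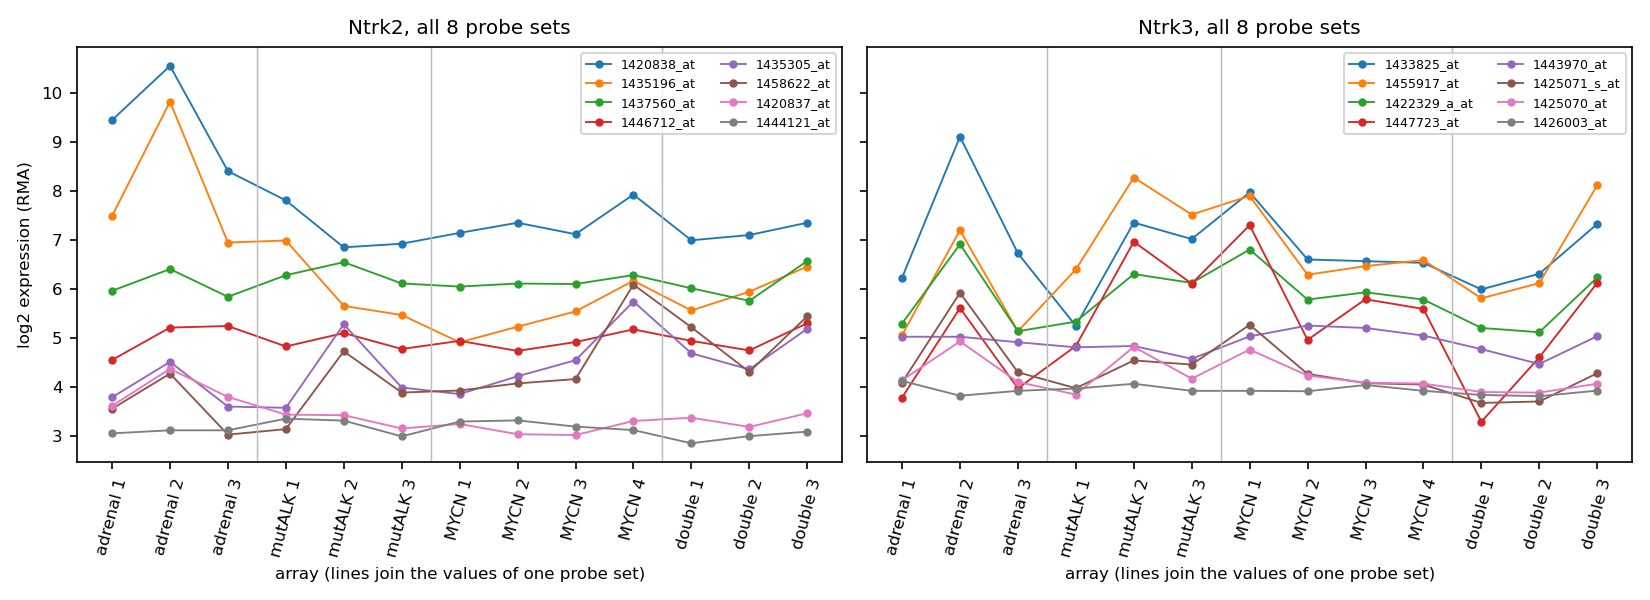
Log2 expression (y axis) of the 8 Ntrk2 probe sets (left) and the 8 Ntrk3 probe sets (right) in the 13 arrays (x axis); lines join the values of 1 probe set and carry no order of arrays. For Ntrk2, 1420838_at and 1435196_at were high in adrenal and 1435305_at and 1458622_at peaked in MYCN 4; for Ntrk3, the brightest line was highest in adrenal 2 (9.12) and next in MYCN 1 (7.98).

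The mean of the fat cell markers moved with Ntrk2. Over 9 measured of 12 markers it was 10.07 to 12.08 in adrenal, 5.69 to 6.85 in mutALK, 6.18 to 8.88 in MYCN and 5.13 to 5.45 in double-driver tumours. Against adrenal 9, 8 and 9 of these 9 genes were lower in mutALK, MYCN and double-driver tumours. That is 100%, 88.9% and 100% called, beside 41.7%, 49.8% and 48.2% of all genes. Adiponectin (Adipoq), made by fat cells, was at 13.33, 13.59 and 12.17 in adrenal and at 10.11 in MYCN 4 and 9.33 in mutALK 1, the tumours with the highest Ntrk2. In MYCN 1, mutALK 2 and double-driver 3 it was at 4.01, 3.49 and 3.38, although double-driver 3, at 7.36, was level with MYCN 2 as the next highest tumours for Ntrk2. Brown fat genes differed from this: Cidea was at 5.99 in mutALK 1, its lowest array, and at 10.96 and 10.86 in MYCN 2 and 3, and the uncoupling protein Ucp1 was at 4.77 against 8.36 and 8.94. Ntrk2 correlated with the fat mean at 0.72 over the 10 tumours and at 0.93 over 13 arrays. Other lists moved with Ntrk2 over 13 arrays as well. The correlations were 0.92 for pancreas, 0.82 for adrenal cortex, 0.78 for endothelial, 0.70 for kidney and 0.60 for fibroblast markers. Over the tumours these were -0.01, -0.04, 0.17, -0.25 and 0.20. Against adrenal, 11 of 11 cortex markers were lower in each tumour group. Of 12 endothelial markers, 11, 12 and 11 were lower in mutALK, MYCN and double-driver tumours. That is 100% of the cortex markers and 91.7%, 100% and 91.7% of the endothelial markers, beside the same shares of all genes. The genes closest to Ntrk2 over the tumours were Car5b (r = 0.92 over the tumours, 0.96 over 13 arrays), Retn (0.91 and 0.95) and Lipe (0.89 and 0.97), of 4163 compared, and Retn and Lipe are themselves in the fat list. The pancreas list mean was also higher in adrenal, at 6.13 to 7.15 against 5.17 to 5.49 in the tumours. Of its 8 measured genes 2, 4 and 3 were lower in mutALK, MYCN and double-driver tumours and 0 higher. That is 25%, 50% and 37.5% called, beside 41.7%, 49.8% and 48.2% of all genes. Cela1 was at 10.48 and 10.86 in adrenal 1 and 3 and at most at 8.28 in the tumours. Cela3b was at 6.31 and 6.35 there, within the tumours' range of 6.19 to 6.54. The part of fat or other tissue in the Ntrk2 difference was not tested.

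**Figure D3:**
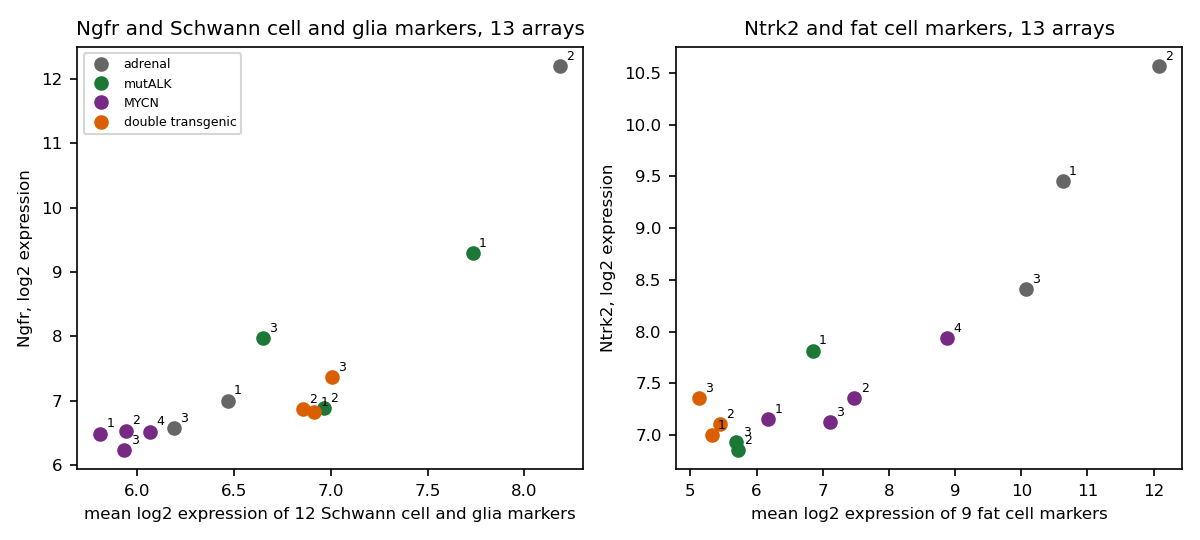
Left, Ngfr (y axis) against the mean of 12 Schwann cell and glia markers (x axis); right, Ntrk2 (y axis) against the mean of 9 fat cell markers (x axis), all in log2 expression of the brightest probe sets, 1 point per array coloured by group and numbered by replicate. Adrenal 2 was highest on both axes of both panels, mutALK 1 was next for Ngfr, and the adrenal arrays stood above all tumours for Ntrk2.

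Ntrk3, which encodes TrkC, varied between arrays of the same group more than between groups. The brightest probe set, 1433825_at, was at 6.24, 9.12 and 6.73 in adrenal, at 5.25, 7.36 and 7.03 in mutALK, at 7.98, 6.61, 6.57 and 6.54 in MYCN, and at 6.00, 6.32 and 7.33 in double-driver tumours. All 4 groups overlapped, adrenal 2 was the highest array and mutALK 1 the lowest. From the highest, group means were 7.36 ± 1.54 (SD, n = 3) in adrenal, 6.93 ± 0.70 (n = 4) in MYCN, 6.55 ± 0.70 (n = 3) in double-driver and 6.55 ± 1.13 (n = 3) in mutALK, with no neighbours apart beyond their spread. The differences from adrenal were -0.82 ± 0.76, -0.44 ± 0.71 and -0.81 ± 0.76 in mutALK, MYCN and double-driver tumours (limma adjusted p 0.454, 0.661 and 0.422). Without adrenal 2 they were 0.06, 0.44 and 0.06.

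The spread within groups was shared by 6 of the 8 Ntrk3 probe sets, which correlated with each other at 0.73 to 0.93 over the 10 tumours. Probe set 1455917_at was at 5.06, 7.20 and 5.14 in adrenal, at 6.40, 8.28 and 7.53 in mutALK, at 7.91, 6.30, 6.47 and 6.60 in MYCN, and at 5.81, 6.13 and 8.12 in double-driver tumours. All 10 tumours lay above adrenal 1 and 3, and 4 of them above adrenal 2 as well. Its difference from adrenal was 1.60 ± 0.75 in mutALK (adjusted p = 0.118, limma) and 1.01 ± 0.70 in MYCN (adjusted p = 0.268). Without adrenal 2 the mutALK difference was 2.30 and called (adjusted p = 0.0257). In double-driver tumours it was 0.88 ± 0.75 (adjusted p = 0.372). Without the 5 liver arrays both of the former passed the threshold, at 3.18 in mutALK and 1.89 in MYCN (adjusted p 0.0291 and 0.0480). The mutALK arm was then 1 array, mutALK 2, the highest of its group, and was assumed to vary like the other groups, so that value has no replicate of its own. Probe set 1447723_at followed it, with differences of 1.52 ± 0.81 and 1.46 ± 0.76 in mutALK and MYCN that were not called in the main fit. Without the liver arrays they were 3.09, again from mutALK 2 alone, and 2.35 (adjusted p = 0.0168 for the latter). Array weights, which keep all 13 arrays, called both probe sets in mutALK and MYCN. The differences were then 2.30 and 1.45 for 1455917_at (limma adjusted p 0.00428 and 0.00866) and 2.15 and 1.76 for 1447723_at (0.0177 and 0.00782).

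The call between tumour groups came from a dim Ntrk3 probe set, 1443970_at, which ran from 4.47 to 5.26 over the 13 arrays. It was lower in mutALK than in MYCN by -0.39 ± 0.13 (adjusted p = 0.0453, limma), and mutALK and MYCN arrays did not overlap. It was at 4.81, 4.84 and 4.58 in mutALK and at 5.04, 5.26, 5.21 and 5.05 in MYCN. This probe set was not among the 6 that moved together, and of the 13 fits without 1 array the call held in 3, those without adrenal 2, double-driver 2 or double-driver 3. Genes closest to the brightest Ntrk3 probe set over the 10 tumours were B3gnt5 (r = 0.88 over the tumours, 0.12 over 13 arrays), C1qtnf4 (0.81 and 0.45) and Elapor1 (0.78 and 0.22), of 4162 compared.

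Ngfr, which encodes the p75 receptor, was highest in a few arrays and, by its brightest probe set, lowest in MYCN tumours. Its brightest probe set, 1454903_at, was at 7.0, 12.19 and 6.58 in adrenal, at 9.29, 6.89 and 7.98 in mutALK, at 6.49, 6.54, 6.24 and 6.52 in MYCN, and at 6.82, 6.87 and 7.37 in double-driver tumours. Adrenal 2 was above every other array and mutALK 1 next, while the 4 MYCN arrays were the 4 lowest. Group means ran from 8.59 ± 3.13 (SD, n = 3) in adrenal over 8.05 ± 1.20 (n = 3) in mutALK and 7.02 ± 0.30 (n = 3) in double-driver to 6.45 ± 0.14 (n = 4) in MYCN. The other probe sets, 1450177_at and 1421241_at, correlated with it at 0.91 to 0.98 over the 13 arrays and put adrenal 2 highest at 7.19 and 5.70.

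No Ngfr difference was called over all arrays, and the values that follow are those of the brightest probe set. MYCN minus adrenal was -2.15 ± 1.08 (adjusted p = 0.127, limma). It was -3.15 and called without adrenal 3 (adjusted p = 0.0373) and -0.34 without adrenal 2 (adjusted p = 0.620). The differences of mutALK and double-driver tumours from adrenal were -0.54 ± 1.15 and -1.57 ± 1.15 (adjusted p 0.767 and 0.299), and 1.26 and 0.23 without adrenal 2 (adjusted p 0.0739 and 0.759). The difference of mutALK minus MYCN was 1.60 ± 1.08 (adjusted p = 0.323), with all 3 mutALK arrays above all 4 MYCN arrays. It was called without adrenal 2 (adjusted p = 0.0138) and with the arrays of both groups alone (0.0397). Without mutALK 1 it was 0.99 (adjusted p = 0.651), and without the 5 liver arrays, adrenal 2 among them, 0.47 (adjusted p = 0.265). Double transgenic minus MYCN was 0.57 ± 1.08 (adjusted p = 0.795), with the groups again apart, and was called with the arrays of both groups alone (adjusted p = 0.0450). Double-driver minus mutALK was -1.03 ± 1.15 (adjusted p = 0.614).

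The mean of the Schwann cell and glia markers moved with Ngfr, which these cells express. Over 12 measured of 15 markers it was 8.18 in adrenal 2 and 7.73 in mutALK 1, the arrays with the highest Ngfr. It was 5.81 to 6.07 in MYCN, the group with the lowest Ngfr by the brightest probe set. The list was not uniform. Myelin basic protein (Mbp) was at 9.25 to 9.83 in MYCN and at 6.72 in mutALK 1, its lowest array, and the GDNF family receptor Gfra3 was at 7.35 in adrenal 2, below every tumour. In the other mutALK arrays the marker mean was 6.65 and 6.97, in double-driver tumours 6.85 to 7.0, and in the other adrenal arrays 6.19 and 6.47. Sox10, the transcription factor that defines this lineage, was at 8.43 in adrenal 2 and 8.26 in mutALK 1 and at 6.36 to 6.64 in MYCN. The cadherin Cdh19 was at 8.68 and 8.89 in those arrays and at 3.02 to 3.90 in MYCN. In mutALK against MYCN 6 of the 12 markers were higher, 1 lower and 5 not called. That is 58.3% called beside 30.3% of all genes. Ngfr correlated with the marker mean at 0.80 over the 10 tumours and at 0.86 over 13 arrays. Other lists moved with Ngfr as well. Over the tumours its correlation was 0.75 with chromaffin cell, 0.72 with sympathetic neuron, 0.63 with macrophage and 0.21 with kidney markers. Over 13 arrays these were 0.59, 0.17, 0.07 and 0.87. The kidney mean was 5.86 in adrenal 2 and 4.68 to 4.89 in the other arrays, so its value over 13 arrays rests on adrenal 2. Chromaffin markers were also higher in mutALK than in MYCN in 6 of 12, with 0 lower, or 50% called beside the same 30.3%. Over the tumours the genes closest to Ngfr were Casz1 (r = 0.96 over the tumours, 0.41 over 13 arrays), Mcpt2 (0.95 and 0.74) and Igsf11 (0.94 and 0.39), of 4162 compared. The part of any of these cell types in the Ngfr differences was not tested.

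Sort1, whose product sortilin pairs with p75 and sorts proteins in the secretory pathway, had the smallest SD over the 10 tumours among the 5 brightest probe sets, 0.15. Its brightest probe set, 1423362_at, was at 9.53, 10.38 and 8.82 in adrenal, at 9.24, 9.36 and 9.27 in mutALK, at 9.38, 9.29, 9.11 and 9.25 in MYCN, and at 9.02, 9.10 and 8.90 in double-driver tumours. Every tumour lay between adrenal 3 and adrenal 1, and the 3 double-driver arrays were the 3 lowest tumours. Group means were 9.58 ± 0.78 (SD, n = 3) in adrenal, 9.29 ± 0.06 (n = 3) in mutALK, 9.26 ± 0.11 (n = 4) in MYCN and 9.01 ± 0.10 (n = 3) in double-driver tumours. Differences from adrenal were -0.29 ± 0.28, -0.32 ± 0.26 and -0.57 ± 0.28 in mutALK, MYCN and double-driver tumours (limma adjusted p 0.483, 0.366 and 0.125). Without adrenal 3 they were -0.66, -0.69 and -0.94, and all 3 were called (adjusted p 0.0280, 0.0136 and 0.00349). Double transgenic minus MYCN was -0.25 ± 0.26 and double-driver minus mutALK -0.28 ± 0.28 (adjusted p 0.607 and 0.571), both with groups that did not overlap. The other Sort1 probe sets, 1423363_at and 1450955_s_at, ran from 6.07 to 6.96 and from 5.5 to 7.27 over the 13 arrays. They were not called in any comparison of the main fit. Without adrenal 3, 1423363_at was called lower than adrenal in MYCN only (-0.58, limma adjusted p = 0.0476). In that fit 1450955_s_at was called lower in MYCN (-0.74, 0.0396) and double-driver tumours (-1.03, 0.0108). Array weights called 1423363_at in MYCN (-0.43, 0.0399) and 1450955_s_at in double-driver tumours (-0.54, 0.0488). The genes closest to Sort1 over the 10 tumours were AI662270 (r = 0.93 over the tumours, -0.04 over 13 arrays), Ets1 (0.92 and 0.66) and Cnn2 (0.91 and 0.55).

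**Figure D4:**
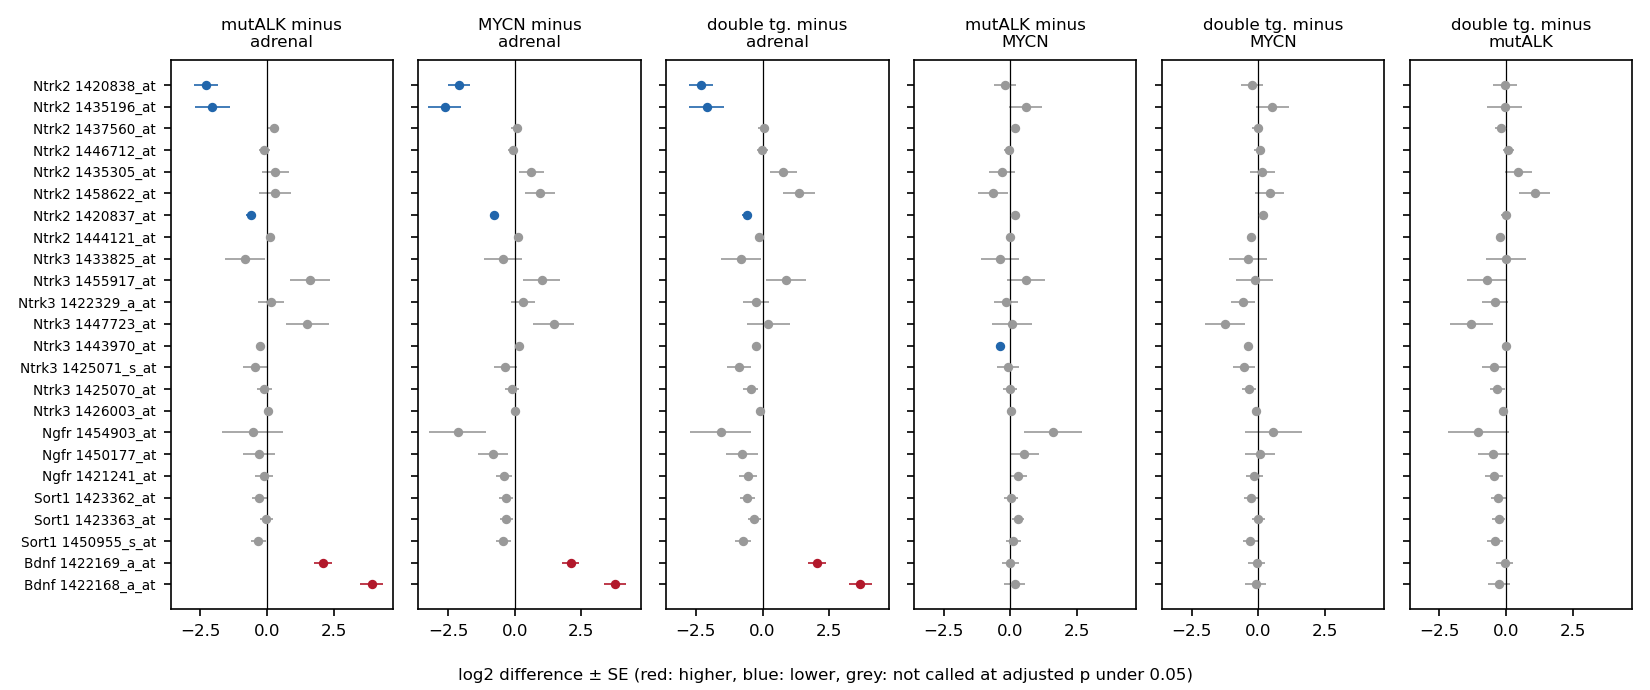
Log2 difference ± SE (x axis) of each of the 24 member probe sets (rows) in the 6 comparisons (panels), from limma over all 13 arrays; red is called higher, blue called lower and grey not called. Bdnf and the 3 falling Ntrk2 probe sets were called in the 3 adrenal panels, and 1443970_at of Ntrk3 was the only call in the tumour panels.

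The other receptors of the family, given by their brightest probe sets, differed between mutALK and MYCN tumours for Nradd, Sorcs2 and Sorcs3. With 1 probe set per gene, 41.7%, 49.8% and 48.2% of all genes were called in mutALK, MYCN and double-driver tumours against adrenal, 30.3% in mutALK against MYCN, 13% in double-driver against MYCN and 14.4% in double-driver against mutALK. Of 6 measured genes of 9 listed, 3 were lower in MYCN than in adrenal and 3 higher in mutALK than in MYCN. Nradd, a p75-related protein without a ligand-binding part, was at a mean of 8.11 in mutALK, 7.99 in double-driver, 7.87 in adrenal and 7.34 in MYCN. It fell by -0.53 ± 0.12 in MYCN against adrenal (adjusted p = 0.00314, limma) and was higher than MYCN by 0.78 ± 0.12 in mutALK (0.000721) and by 0.66 ± 0.12 in double-driver tumours (0.00552). The mutALK difference lost its call without the liver arrays, where mutALK 2 stood alone. Sorcs2, a sortilin-family receptor that binds proneurotrophins, was lower by -1.62 ± 0.43 in MYCN against adrenal (0.0078) and higher by 1.64 ± 0.43 in mutALK against MYCN (0.0133), the latter lost without mutALK 1 (0.0659).

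Sorcs3 of the same family rose in mutALK, by 1.08 ± 0.25 against adrenal (adjusted p = 0.00422, limma) and by 0.80 ± 0.23 against MYCN (0.0223). Sorl1 was lower by -1.64 ± 0.45 in MYCN than in adrenal (0.00979). Each of these 3 differences lost its call without the 5 liver arrays, where they were 0.64, 0.34 and -1.0. The Sorcs3 difference from MYCN was also lost with title-number arrays averaged (0.0536), with the title number as a random block (0.0534), and without mutALK 1, mutALK 3 or MYCN 2. Sorcs1 was higher by 0.53 ± 0.20 in double-driver tumours than in adrenal (0.0491), a call lost in 15 of 23 alternatives.

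Genes whose products cut proneurotrophins, or inhibit or assist that cutting, were called about as often as other genes. Of 13 measured of 15, 0 rose and 7 fell in MYCN, 3 rose and 3 fell in mutALK, and 2 rose and 5 fell in double-driver tumours, each against adrenal, where the medians were -0.75, -0.20 and -0.42. That is 53.8%, 46.2% and 53.8% called, near the 49.8%, 41.7% and 48.2% of all genes, of which nearly equal shares rose and fell (25.2% and 24.6% in MYCN, 21% and 20.7% in mutALK, 24.2% and 24% in double-driver tumours). The proprotein convertases Pcsk5 and Furin, which cleave proneurotrophins, fell in all 3. Pcsk5 fell by -4.14 ± 0.32 in MYCN, -4.63 ± 0.34 in mutALK and -4.92 ± 0.34 in double-driver tumours (limma adjusted p 1.06e-06, 2.06e-06 and 8.36e-07), and Furin by -1.72 ± 0.14, -1.56 ± 0.15 and -1.56 ± 0.15 (adjusted p 1.43e-06, 1.2e-05 and 6.26e-06). Tissue plasminogen activator (Plat) fell by -2.21 ± 0.30 in MYCN (8.49e-05) and was higher by 1.84 ± 0.30 in mutALK than in MYCN (0.00107). Neuroserpin (Serpini1), an inhibitor of that protease, rose by 3.16 ± 0.86 in mutALK (0.0118) and 2.57 ± 0.86 in double-driver tumours (0.0286), where the first call was lost without adrenal 1 and the second without adrenal 1, adrenal 3 or any of the double-driver arrays. Between mutALK and MYCN 4 of the 13 were higher and 0 lower, 30.8% called beside 30.3% of all genes.

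Adaptors and kinases downstream of Trk receptors changed in both directions. Of 34 measured of 35, 13 rose and 4 fell in mutALK, 11 rose and 9 fell in MYCN, and 13 rose and 6 fell in double-driver tumours against adrenal. That is 50%, 58.8% and 55.9% called, against 41.7%, 49.8% and 48.2% of all genes. Cdk5r1, the neuronal activator of the kinase Cdk5, rose by 3.76 ± 0.37, 3.93 ± 0.35 and 3.90 ± 0.37 in mutALK, MYCN and double-driver tumours (limma adjusted p 1.62e-05, 2.98e-06 and 6.81e-06). The docking protein Gab2 rose by 1.88 ± 0.17, 2.49 ± 0.15 and 2.30 ± 0.17 in the same order (7.22e-06, 2.73e-07 and 1.07e-06). In mutALK against MYCN 11 were higher, 5 lower and 18 not called, 47.1% beside the 30.3% of all genes. The 16 calls became 9 without mutALK 2 or with arrays of 1 title number averaged. The share of all genes called in those runs was not computed, so this move cannot be set beside theirs. Among the 16 the Trk adaptor Shc1 was higher by 1.99 ± 0.15 (1.87e-05), the Trk-binding scaffold Kidins220 by 2.07 ± 0.19 (4.02e-05) and the insulin receptor substrate Irs2 by 2.76 ± 0.37 (0.000281). Kidins220 was also higher in double-driver than in MYCN tumours, by 1.68 ± 0.19 (0.000592).

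Of 19 measured of 24 genes whose products bind or signal with p75, 8 rose and 4 fell in mutALK, 10 rose and 5 fell in MYCN and 8 rose and 7 fell in double-driver tumours against adrenal. That is 63.2%, 78.9% and 78.9% called, beside 41.7%, 49.8% and 48.2% of all genes. The p75-binding proteins Bex1 and necdin (Ndn) rose in all 3: Bex1 by 3.47 ± 0.27, 3.51 ± 0.25 and 3.43 ± 0.27 (limma adjusted p 2.97e-06, 6.42e-07 and 1.68e-06) and Ndn by 1.65 ± 0.25, 1.48 ± 0.23 and 1.69 ± 0.25 (0.000296, 0.000254 and 0.000172) in mutALK, MYCN and double-driver tumours. Tnfrsf19, a TNF receptor family member that can stand in for p75 in the Nogo receptor complex, fell by -5.23 ± 0.48, -1.88 ± 0.45 and -3.66 ± 0.48 (9.28e-06, 0.00422 and 6.68e-05). In mutALK against MYCN 2 of the 19 were higher and 3 lower, 26.3% called beside 30.3% of all genes. The 5 calls became 3 without mutALK 2 or with title-number arrays averaged, and 8 without adrenal 2 or with array weights. The share of all genes called in those runs was not computed. Tnfrsf19 was lower by -3.35 ± 0.45 in mutALK than in MYCN (0.000281).

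Genes known to respond to neurotrophins, all 25 measured, changed in both directions. Against adrenal 4 rose and 7 fell in mutALK, 4 rose and 14 fell in MYCN, and 4 rose and 10 fell in double-driver tumours, with Bdnf itself among the 4 that rose. That is 44%, 72% and 56% called beside 41.7%, 49.8% and 48.2% of all genes, which rose and fell about equally often. Most of these genes respond to many receptors, so the list is not specific to Trk. The orphan nuclear receptor Nr4a1 fell by -4.71 ± 0.25, -5.11 ± 0.24 and -4.47 ± 0.25 in mutALK, MYCN and double-driver tumours (limma adjusted p 3.73e-07, 5.78e-08 and 3.26e-07). In mutALK against MYCN 8 of the 25 were higher and 4 lower, 48% beside the 30.3% of all genes. Against MYCN the ETS factor Etv5 was higher by 3.56 ± 0.31 in mutALK (2.81e-05) and by 4.09 ± 0.31 in double-driver tumours (6.14e-05), whereas the neuronal pentraxin Nptx2 was lower by -2.90 ± 0.40 and -2.48 ± 0.40 (0.000324 and 0.00282). Spry4, a feedback inhibitor of receptor tyrosine kinase signalling, was higher by 3.80 ± 0.52 in mutALK than in MYCN (0.000338). Vgf, a neurotrophin-induced secretory protein, was higher by 2.48 ± 0.59 in mutALK (0.00844) and by 2.39 ± 0.59 in double-driver tumours (0.0219) than in MYCN. The double-driver call was lost without MYCN 2, double-driver 1, double-driver 3 or the liver arrays. The mutALK difference was not run under the alternatives. Of the 100 differences that the naming rule picks from these lists, 69 were called under every alternative run.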

How the data were processed

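Total RNA of 10 tumours and 3 adrenal glands was measured on Affymetrix mouse arrays. The deposited values are log2 signals made by the authors with RMA in Partek, per the submitters' processing notes, with no versions and no detection calls. RMA makes the arrays' distributions alike, which removes global shifts. Of 45101 probe sets, 34958 had exactly 1 symbol, 932 had several and were left out, and 9211 were not listed. RefSeq on GRCm38.p6 matched 34754 and changed 0 symbols. Arrays were grouped by their labelled genotype.

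Group means were estimated with limma 3.58.1 (lmFit, eBayes, 9 residual and 2.48 prior degrees of freedom) in R 4.3.3, over all 13 arrays at once. Each contrast was two-sided and Benjamini-Hochberg adjusted over 34958 probe sets. The fit was tested on simulated data. A gene (18194 in all) stands for its probe set with the highest mean. Named were all member probe sets, up to 4 called genes per pathway list and comparison, all other ligands and receptors, and the 3 genes per member with the highest correlation over the tumours among genes with an SD of at least 0.5, without predicted genes. Members and lists were chosen with earlier results of these data known. The number of arrays limits the precision. Alternatives were 24: normalization, probe set summary, dim filter, variance model, arrays used, title numbers shared by 2 arrays (mutALK 2 and 3, MYCN 2 and 3; their meaning is not given), the liver arrays, and each array left out.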

Additional observations from a re-analysis of the deposited data

Results flagged for a closer look

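In the 4 MYCN arrays, the only group with the 4 to 10 arrays at which Dixon's test was applied here, the array farthest from the rest was checked for each of the 24 probe sets, and chance alone flags about 1 group in 20. The test picked out 6. Ntrk2 1458622_at was at 6.09 in MYCN 4, where the next array was at 4.16. MYCN 1 was high for Ntrk3, at 7.98 in 1433825_at (next 6.61) and at 6.81 in 1422329_a_at (next 5.94). MYCN 3 was at 4.04 in Ntrk3 1426003_at (next 3.92). The same array was low at 6.24 in Ngfr 1454903_at (next 6.49) and at 6.12 in Sort1 1423363_at (next 6.35).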

How the results depend on the processing

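Of 144 member differences, 16 were called, 8 of them under every alternative run, and 17 of 128 uncalled ones were called under at least 1. No called difference changed sign, while 64 uncalled ones did under some alternative. The Bdnf calls never changed. The Ntrk2 call of 1420838_at was lost with the mean of all probe sets alone (adjusted p 0.189, 0.170 and 0.328 in mutALK, MYCN and double-driver). Counts of members called moved as follows. Array weights gave 9 in MYCN minus adrenal and 1 in double-driver minus MYCN. Using the arrays of both groups alone gave 3 in mutALK minus adrenal, 2 in mutALK minus MYCN and 1 in double-driver minus MYCN. Averaging arrays of 1 title number gave 3 in mutALK minus adrenal. That averaging, median centring, leaving out the dimmest 40%, the title number as a random block (correlation 0.448) and leaving out the liver arrays gave 0 in mutALK minus MYCN. Without the liver arrays double-driver minus adrenal gave 3. Leaving out 1 array at a time gave 3 to 6 in mutALK minus adrenal, 5 to 9 in MYCN minus adrenal, 3 to 7 in double-driver minus adrenal, 0 to 2 in mutALK minus MYCN, 0 to 1 in double-driver minus MYCN and 0 throughout in double-driver minus mutALK. In mutALK minus MYCN the count was 0 except without adrenal 2, double-driver 2 or double-driver 3. In the other comparisons the counts farthest from the main fit came without mutALK 3, adrenal 2, adrenal 3, double-driver 2 or double-driver 3. The share of all probe sets called was computed for the main fit alone, so these moves cannot be set beside those of all probe sets. The cause was not tested. Both fits with 1 value per gene give no probe set count. No paired analysis was possible because the groups share no replicate numbers in the labels.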
